A study of Mus musculus with 8 samples.

Results

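The 4 Control libraries of a mouse RNA sequencing series of sorted distal convoluted tubule fragments were described here on their own, without a comparison with the other 4 of the 8 libraries. Members were taken by the deposited genotype label Control, which every one of these libraries carries. The series was made to examine what loss of the calcineurin subunit gene Cnb1 does in this segment. Control libraries are labelled Cnb1fl wt, NCCcre Tg/+, TOMATO Tg/+, so these controls too carry the Cre transgene named for the NaCl cotransporter (NCC) and the Tomato reporter. Tamoxifen was given to them by oral gavage as well, at 2 mg per animal and day over 5 days, and the experiments followed 3 weeks later. A Control library is therefore a sample of tamoxifen-treated reporter mice, not of untreated wild-type mice. For each library, 1000 fragments were collected on a Biosorter, a flow sorter for large particles, and their RNA was isolated with a column kit. Each library title carries another number, without a statement that these are separate animals, and background strain, sex and age are not given in the labels used here. Replicate numbers only name the libraries in the order of deposit, and 4 values given in a row below are those of Control replicates 1 to 4.

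The distal convoluted tubule lies between the thick ascending limb of the loop of Henle and the connecting tubule. Its cells take up NaCl from the urine through the thiazide-sensitive cotransporter NCC, encoded by Slc12a3, and the basolateral sodium pump, chloride channels and potassium channels carry the ions onward to the blood. A kinase chain of WNK kinases and SPAK sets NCC activity, and the ubiquitin ligase of KLHL3 and CUL3 removes the WNKs. The early part also takes up magnesium through TRPM6 and makes parvalbumin, while the late part and the connecting tubule take up calcium through TRPV5, calbindins, the sodium-calcium exchanger and calcium pumps, and respond to aldosterone through the epithelial sodium channel.

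The libraries summed to 23190905, 42389558, 19911826 and 20493441 counts, in the order of replicates. In every one of the 4 libraries 12231 of 42416 gene identifiers (28.8%), and 11528 of 21942 nuclear protein-coding genes (52.5%), reached 1 CPM (a gene's counts per 1000000 of its library's scaled size), which is the detection threshold used below. Another 20757 identifiers had no count in any of them. The 4 libraries were not alike in 2 respects that touch many values below. Control replicate 1 had higher CPM of short and lower CPM of long transcripts than the others, with a median log2 ratio to the mean of the other 3 libraries of 0.79 for 364 genes whose longest annotated transcript is at most 1 kb and -0.47 for 574 genes with one over 8 kb. Control replicate 2 had the most counts, its deposited file is the only one of the 4 whose name carries a pair of short base sequences, and it had the highest CPM of immediate early genes. What that form of name marks is not given in the labels, and its part in these values was not tested. Counts below of genes highest or lowest in 1 library stand without the share over all genes, which was not computed. Levels of different genes are compared only as TPM (counts divided by gene length and set to a sum of 1000000 in each library), with the length of all exons of a gene merged unless the longest transcript is named.

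Transcripts of the mitochondrial genome took 17.0% to 19.1% of counts, with a mean of 18.3% ± 0.967 (SD, n = 4). mt-Co1, a catalytic subunit of cytochrome c oxidase, had the highest TPM of any protein-coding gene and 73378, 61831, 72669 and 69547 CPM. mt-Cytb, of complex III, followed with 49180.2, 36086, 44599 and 42789.8 CPM. mt-Nd1, mt-Nd2, mt-Nd4 and mt-Nd5, all of complex I, had means of 14176 to 23431 CPM. The other mitochondrial genes were counted unevenly. mt-Co2 and mt-Co3, which encode the other large subunits of the same oxidase, had means of only 0.285 and 1.06 CPM, mt-Atp6 had 0.124 CPM and mt-Atp8 had no count, which allows up to 0.0297 CPM over the 4 libraries. How reads that match more than 1 place were counted is not given in the sources used here, so the mitochondrial share is a share of counted reads only, and whether the low counts of these 4 genes match their transcript levels was not tested.

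The 100 most abundant genes, mitochondrial ones included, held 38.1% ± 1.52 (SD, n = 4) of counts, and the 10 most abundant 22.1% ± 1.24. Among nuclear protein-coding genes, Klk1, which encodes tissue kallikrein, a protease that late distal and connecting tubule cells secrete into the urine, had the highest TPM by either gene length. Its CPM was 25109.5, 12398, 15019 and 15716 in the 4 libraries, highest in replicate 1, and its mean was 33207 TPM. S100g, which encodes the small calcium carrier calbindin-D9k, came second with 24110 TPM and 8876, 3358, 6253 and 3806 CPM. Kap, the androgen-regulated kidney protein known from proximal tubule, followed with 22385 TPM and 5264, 8046, 11304 and 4547 CPM. Defb1, an antimicrobial peptide of the urinary epithelium, had 5462, 1952, 3063 and 3078 CPM and 8075 TPM. Umod, which encodes uromodulin, the major urinary protein, had 6811 TPM. Gpx3, a secreted glutathione peroxidase known from proximal tubule, had 2339, 7595, 5120.2 and 4847 CPM, lowest in replicate 1. Wfdc15b, which encodes a small secreted protein with a whey acidic protein domain, had 3329 TPM.

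Of the 40 nuclear protein-coding genes with the highest mean TPM, predicted gene models left out, 13 encode subunits of the respiratory chain or ATP synthase, among them Cox6b1 at 2635 TPM, Atp5b at 2450.3 and Atp5a1 at 2338. Ldhb, the lactate dehydrogenase subunit of aerobic tissues, had 3609.6, 2428, 2245 and 2179 CPM, and Oxct1, which opens the breakdown of ketone bodies, had 3847, 3186, 3307 and 3015 CPM. Mdh1, cytosolic malate dehydrogenase, had 2833, 1775, 1899.7 and 1649 CPM and Slc25a5, the mitochondrial ADP/ATP carrier, 2342, 1569, 1507 and 1563 CPM. All 4 of these genes were highest in replicate 1, as were 34 of the 40. Spp1, which encodes osteopontin, and Clu, which encodes clusterin, both secreted proteins often read as injury markers, were among the 40 with 3688 and 1376 TPM. Tmem52b, a membrane protein, had 2955, 2818, 2760.0 and 2657 CPM, the smallest spread among the 40, with a coefficient of variation (CV, SD over mean) of 4.44%.

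All 6 genes taken here as markers of the segment were present in every library, though Umod is a marker of thick ascending limb as well. Slc12a3, the defining gene, had 5651, 6278, 7154 and 8049 CPM in the 4 libraries, with a mean of 6783 ± 1045 (SD, n = 4). By TPM it was the 46th nuclear protein-coding gene by exon union (1320.2 TPM) and the 13th by longest transcript (2892 TPM), since its merged annotated exons measure 11119 bases and its longest transcript 4310. Egf, which encodes the epidermal growth factor precursor that stimulates magnesium uptake, had 5852, 7796, 7801 and 6323 CPM, and its TPM was 0.775 to 1.22 times that of Slc12a3 over the 4 libraries. Trpm6, the magnesium channel, had 187, 193, 227 and 278 CPM. Values of Slc12a3 and Trpm6 were ordered alike over the libraries, lowest in replicate 1 and highest in replicate 4. Calb1, which encodes the calcium buffer calbindin-D28k, had 3749, 2019, 2939 and 3879 CPM. Pvalb, the parvalbumin of the early part, was the most uneven of the 6, with 987, 179, 381 and 485 CPM, 5.53-fold higher in replicate 1 than in replicate 2. Umod, known from thick ascending limb and from the early distal convoluted tubule, had 9356, 6028, 8901 and 10962 CPM. It was the most abundant of the 6 per length by either length in every library. From which of these segments its counts come was not tested. The 6 genes lie, on GRCm38 and in the order just given, on chromosome 8 from 94329201 to 94366214 (plus strand), chromosome 3 from 129677565 to 129755316 (minus), chromosome 19 from 18749983 to 18892511 (plus), chromosome 4 from 15881264 to 15908064 (plus), chromosome 15 from 78191114 to 78206400 (minus) and chromosome 7 from 119462711 to 119479282 (minus).

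**Figure D1:**
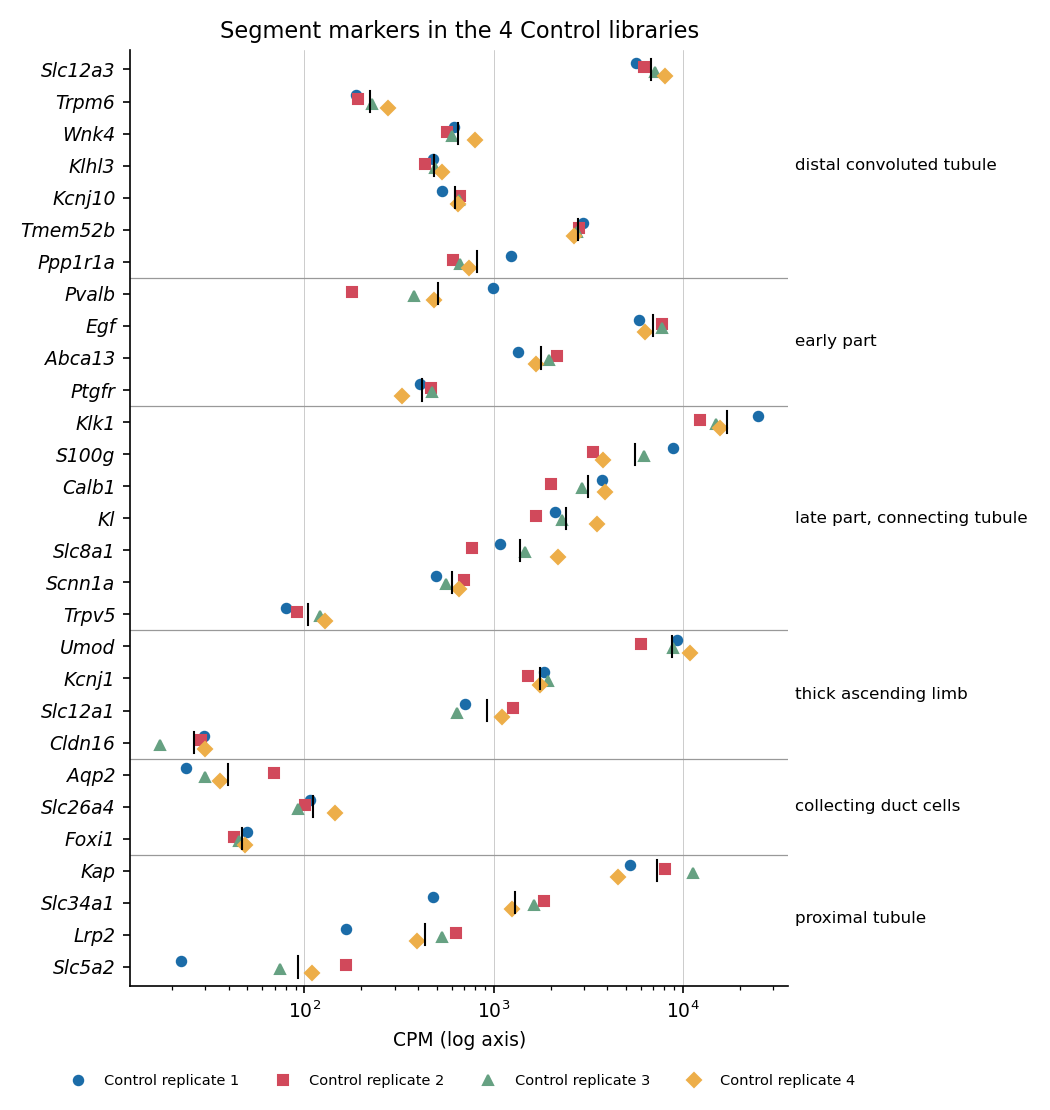
CPM of marker genes of the distal convoluted tubule and of its neighbours (horizontal log axis) in each of the 4 Control libraries (symbols) with the mean of the 4 (black line). Slc12a3, Egf and Umod lie at 5651 CPM or more in every library, the proximal genes Slc34a1 and Lrp2 are lowest in replicate 1, and Pvalb spreads more than its neighbours.

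The promoter windows of Slc12a3 and S100g are shown, as the gene that defines the segment and the most abundant calcium carrier in it. Both come from RefSeq's table for GRCm38.p6 and run from 250 bases before to 50 after the annotated start, 5′ to 3′ on the gene's strand, with matches to TATAAA and to AAGGTCA on either strand in capitals. AAGGTCA is the half-site to which estrogen-related receptors are known to bind, and 3 of these receptors are described below. The Slc12a3 window is chr8:94328958-94329257 (plus strand), and that of S100g is chrX:162964550-162964849 (minus strand).
Slc12a3: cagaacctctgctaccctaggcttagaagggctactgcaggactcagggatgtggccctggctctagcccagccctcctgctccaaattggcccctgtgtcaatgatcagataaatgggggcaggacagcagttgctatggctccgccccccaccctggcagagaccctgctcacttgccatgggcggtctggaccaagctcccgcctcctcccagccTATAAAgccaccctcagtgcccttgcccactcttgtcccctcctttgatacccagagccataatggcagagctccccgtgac
S100g: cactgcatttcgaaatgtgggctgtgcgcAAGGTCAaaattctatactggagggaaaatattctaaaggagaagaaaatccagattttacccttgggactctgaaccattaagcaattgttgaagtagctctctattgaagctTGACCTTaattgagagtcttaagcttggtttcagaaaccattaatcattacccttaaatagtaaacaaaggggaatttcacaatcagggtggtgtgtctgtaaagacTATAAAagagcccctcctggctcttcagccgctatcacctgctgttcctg
The Slc12a3 window held TATAAA at bases 219 to 224 of the 300 and no AAGGTCA. The S100g window held TATAAA at bases 251 to 256, at the annotated start itself, and AAGGTCA at bases 30 to 36 and, on the other strand, at bases 144 to 150. Of all 32851 windows in the table, 13.6% held TATAAA and 4.72% held AAGGTCA, and of the 27025 genes these windows belong to, 15.7% and 5.38% had the motif in a window. Of the 40 most abundant genes, 30 were in the table by symbol, and 4 of the 30 had TATAAA and 4 had AAGGTCA in a window. A match describes the letters only, and no binding was measured in these libraries.

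Markers shared by the early and late part were all detected, 18 of 18, against 52.5% of all nuclear protein-coding genes, the share beside which each later count of detected genes is to be read. Kcnj10 and Kcnj16, which together form the basolateral potassium channel Kir4.1/Kir5.1, had 533, 667, 653 and 650.1 CPM for Kcnj10 and 906, 1073, 1078 and 981 CPM for Kcnj16. Per length Kcnj16 was 2.07 to 2.33 times as abundant as Kcnj10, and 2.21 to 2.48 times by longest transcript. Bsnd, which encodes barttin, a subunit of chloride channels, had a mean of 324 ± 32.5 CPM (SD, n = 4). Slc16a7, a monocarboxylate transporter, had 1276, 1094, 1231 and 1281 CPM. Ppp1r1a, an inhibitor of protein phosphatase 1, had 1238, 613, 666 and 744 CPM, highest in replicate 1. Emx1, Sall3 and Tfap2b, transcription factors of the distal nephron, had means of 166 ± 52.2, 74.1 ± 12.01 and 146 ± 6.004 CPM.

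Genes of the early part were detected in 10 of 10 cases. Abca13, a large lipid transporter, had 1342, 2166, 1961 and 1673 CPM, lowest in replicate 1. Ptgfr, the receptor for prostaglandin F2α, had 407, 467, 471 and 329 CPM and Col5a2, a fibrillar collagen chain, 269, 238, 227 and 152. Trpm7, a magnesium-permeable channel that pairs with TRPM6, had 341, 468, 436 and 419 CPM. Erbb4, a receptor of the EGF family, had 30.3, 53.0, 37.4 and 48.3 CPM, and Fgf13, an intracellular FGF homologue, had 8.92, 6.59, 4.91 and 4.71 CPM. Stk32b, a kinase, had 39.5, 87.3, 65.1 and 63.1 CPM. The libraries were not ordered alike over these genes, and no other early gene spread as widely as Pvalb.

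Genes of the late part and the connecting tubule were detected in 14 of 15 cases, and without Klk1 and S100g they summed to 8245, 6068, 8262 and 11425 CPM. Of the 15, 11 were highest in replicate 4 and 9 were lowest in replicate 2. Kl, which encodes Klotho, the coreceptor of the phosphate hormone FGF23, had 2119, 1675, 2299 and 3528 CPM. Slc8a1, the sodium-calcium exchanger NCX1, had 1075, 772, 1465 and 2192 CPM, a 2.84-fold range. Hsd11b2, which inactivates glucocorticoids and so lets the mineralocorticoid receptor respond to aldosterone, had 86.3, 131, 134 and 189.9 CPM. For all 3 genes replicate 4 was the highest, and the lowest was replicate 2 for Kl and Slc8a1 but replicate 1 for Hsd11b2. Slc2a9, a urate transporter, had 61.3, 60.7, 63.4 and 68.0 CPM, Arl15, a regulator of magnesium transport, 43.3, 35.1, 38.9 and 60.6, and Phactr1, an actin and phosphatase regulator, 66.7, 50.6, 50.2 and 71.7. Egfem1 was near the limit of detection, with 23 counts over the 4 libraries.

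Markers of the neighbouring thick ascending limb were detected in 10 of 11 cases. Slc12a1, the furosemide-sensitive cotransporter NKCC2 that defines that segment, had 708, 1263, 639 and 1103 CPM, highest in replicate 2. Per length Slc12a3 was 2.58 to 5.80 times as abundant as Slc12a1 over the 4 libraries by exon union and 5.47 to 12.3 times by longest transcript. Umod exceeded Slc12a1 9.96 to 29.1 times by exon union. Cldn16 and Cldn10, claudins of the paracellular pathway, had 29.5, 28.3, 17.2 and 30.0 CPM for Cldn16 and 34.1, 76.0, 74.4 and 63.4 CPM for Cldn10. Ptger3, the prostaglandin E2 receptor EP3, had 36.9, 66.4, 46.0 and 57.7 CPM. Cldn19, the partner of Cldn16, and Ppp1r1b had means of 34.5 ± 6.98 and 57.2 ± 15.9 CPM (SD, n = 4), and Cldn14 stayed under 1 CPM in every library. Umod and Kcnj1, which the distal convoluted tubule is known to share, made up most of this list: the other 9 genes summed to 924, 1540.1, 860.0 and 1368 CPM. Among genes of the macula densa, the sensor cells at the end of the thick ascending limb, 3 of 5 were detected (60.0%, against 52.5%). Nos1, which defines them, had 1.32, 3.75, 2.72 and 8.02 CPM and a mean of 2.60 without replicate 4, and Avpr1a, a vasopressin receptor, 19.4, 24.1, 18.4 and 36.9. Ptgs2, the inducible cyclooxygenase, had 0.926, 2.24, 0.418 and 0.952 CPM. In bulk libraries such as these, fewer cells of a type and less RNA per cell cannot be told apart.

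For the entry of NaCl, all 8 genes examined were detected. Scnn1a, the α subunit of the epithelial sodium channel of the late part, had 496, 696, 558 and 655 CPM, while Scnn1b and Scnn1g, its β and γ subunits, had 102, 96.5, 103 and 149 CPM for Scnn1b and 98.8, 89.9, 141 and 167 CPM for Scnn1g. Per length Scnn1a was 2.81 to 4.60 times as abundant as Scnn1b in the 4 libraries, whereas the ratio of Scnn1b to Scnn1g was 0.834 to 1.22. Slc12a3 exceeded Scnn1a 3.35 to 4.76 times by exon union and 7.32 to 10.4 times by longest transcript. The sodium-proton exchangers had lower TPM than these, with 32.9 TPM of Slc9a2 and 23.2 of Slc9a3, the exchanger of proximal tubule and thick ascending limb, which had 25.5, 84.5, 60.4 and 60.4 CPM.

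Of 12 genes that control NCC, 10 were detected. Wnk1 and Wnk4, the kinases at the head of the chain, had 2942, 3133, 3543 and 3707 CPM for Wnk1 and 614, 565, 604 and 802 CPM for Wnk4. Which of them was the more abundant per length depended on the length taken, with 336 TPM of Wnk4 and 315 of Wnk1 by exon union but 287 and 539 by longest transcript. Wnk2 and Wnk3, the latter overlapping another gene, were at or below about 1 CPM in every library, with at most 1.00 and 0.752 CPM in replicate 4. Stk39, which encodes SPAK, the kinase that phosphorylates NCC, had 197, 160.2, 154 and 163 CPM and Oxsr1, its relative OSR1, 52.6, 60.2, 68.7 and 57.8. Per length Stk39 was 2.43 to 4.06 times as abundant as Oxsr1. Klhl3, the adaptor by which WNKs are ubiquitinated, had 479, 432, 493 and 533 CPM, and Cul3, the scaffold of that ligase, 137, 161, 148 and 135. Sgk1 and Tsc22d3, both corticosteroid-induced, were highest in replicate 2 and lowest in replicate 4, with 17.2, 36.1, 33.5 and 12.8 CPM for Sgk1 and 43.7, 49.6, 43.5 and 23.1 CPM for Tsc22d3. Nedd4l, the ubiquitin ligase on which SGK1 acts, had 60.0, 74.6, 78.2 and 84.6 CPM.

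On the basolateral side, 7 of 14 genes of the sodium pump and its FXYD regulators were detected, a share close to the 52.5% of all nuclear protein-coding genes. Not every gene of this list is reported here, so the values below do not account for all of its counts. Atp1b1, the β1 subunit, had 6034, 5267, 5316 and 5153 CPM, and Fxyd2, the γ subunit, 6958, 3719.8, 3653 and 4192. Atp1b1 was 51.1 to 62.0 times as abundant as Atp1b3, the next β subunit. Fxyd4, known from collecting duct, had 6.88, 19.7, 8.73 and 5.46 CPM, highest in replicate 2.

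Among 10 potassium channel genes of the distal nephron 8 were detected. Kcnj1, which encodes the apical secretory channel ROMK, was the most abundant of them with 1132 TPM and 1840.1, 1517, 1936 and 1762 CPM, and per length it exceeded Kcnj10 3.69 to 5.60 times. Kcnk1 and Kcnq1, a 2-pore channel and a voltage-gated channel, had means of 106 ± 8.48 and 163 ± 27.2 CPM (SD, n = 4). Kcnj15, which encodes Kir4.2, known from proximal tubule, and Kcnk5, which encodes the proximal channel TASK2, were lowest in replicate 1, with 71.6, 391, 288 and 260.3 CPM for Kcnj15 and 11.9, 64.8, 53.9 and 33.4 CPM for Kcnk5. Kcnma1, the BK channel of flow-induced secretion, had only 26 counts over the 4 libraries, and Kcna1, which has been linked to magnesium uptake, 5. Chloride genes were detected in 11 of 12 cases. Clcn3, Clcn4 and Clcn5, endosomal exchangers, had means of 100.4 to 128 CPM. Slc12a7, the potassium-chloride cotransporter KCC4, had 77.2, 141, 132 and 131 CPM, lowest in replicate 1. Cftr had 0.780, 3.46, 2.61 and 2.46 CPM.

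For magnesium, 16 of 17 genes were detected. Trpm7 was 1.03 to 1.65 times as abundant as Trpm6 per length. Cnnm2, a basolateral protein mutated in inherited hypomagnesaemia, had 120.4, 124, 147 and 183 CPM, and Cnnm1, Cnnm3 and Cnnm4 had means of 28.5 ± 2.31, 33.6 ± 1.79 and 13.5 ± 2.16 CPM (SD, n = 4). Per length Cnnm2 was the highest of the 4 by either length, with 60.0 TPM against 10.7, 11.2 and 6.06 TPM. Slc41a1 and Slc41a3, candidate sodium-magnesium exchangers, had 30.7, 47.3, 43.9 and 44.4 CPM for Slc41a1 and 23.5, 24.1, 10.03 and 33.5 CPM for Slc41a3. Pcbd1, a cofactor of transcription factors, had 378, 235, 225 and 268 CPM, highest in replicate 1. Magt1, an oligosaccharyltransferase subunit also read as a magnesium transporter, and Ptp4a2, a phosphatase that binds CNNM proteins, had 119 ± 14.2 and 136 ± 7.82 CPM.

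For calcium, 10 of 15 genes were detected. Trpv5, the apical channel of the late part, had 80.0, 91.1, 121 and 128 CPM and exceeded Trpv6, its intestinal relative, 12.6 to 20.995 times per length. Of the calcium buffers, S100g was 9.91 to 23.9 times as abundant as Calb1 and 17.0 to 40.8 times as Pvalb per length, the lowest ratio to Calb1 being in replicate 4. Calb1 and Pvalb were not in 1 order over the libraries: the ratio of Calb1 to Pvalb per length was 0.816 to 2.43, and it was below 1 in replicate 1 alone. Calb2, which encodes calretinin, had no count, which allows up to 0.0297 CPM. Slc8a1 was the only one of the 3 exchangers of its family to be detected. Atp2b4, a plasma membrane calcium pump, had 102, 128, 154 and 237 CPM, Atp2b1 65.97, 106, 101 and 87.6 and Atp2b3 no count. Per length Slc8a1 exceeded Atp2b4 3.94 to 6.87 times, and the order of Atp2b4 and Atp2b1 depended on the length taken. Atp2a2, the calcium pump of the endoplasmic reticulum, had 186, 373, 377 and 298 CPM, lowest in replicate 1.

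**Figure D2:**
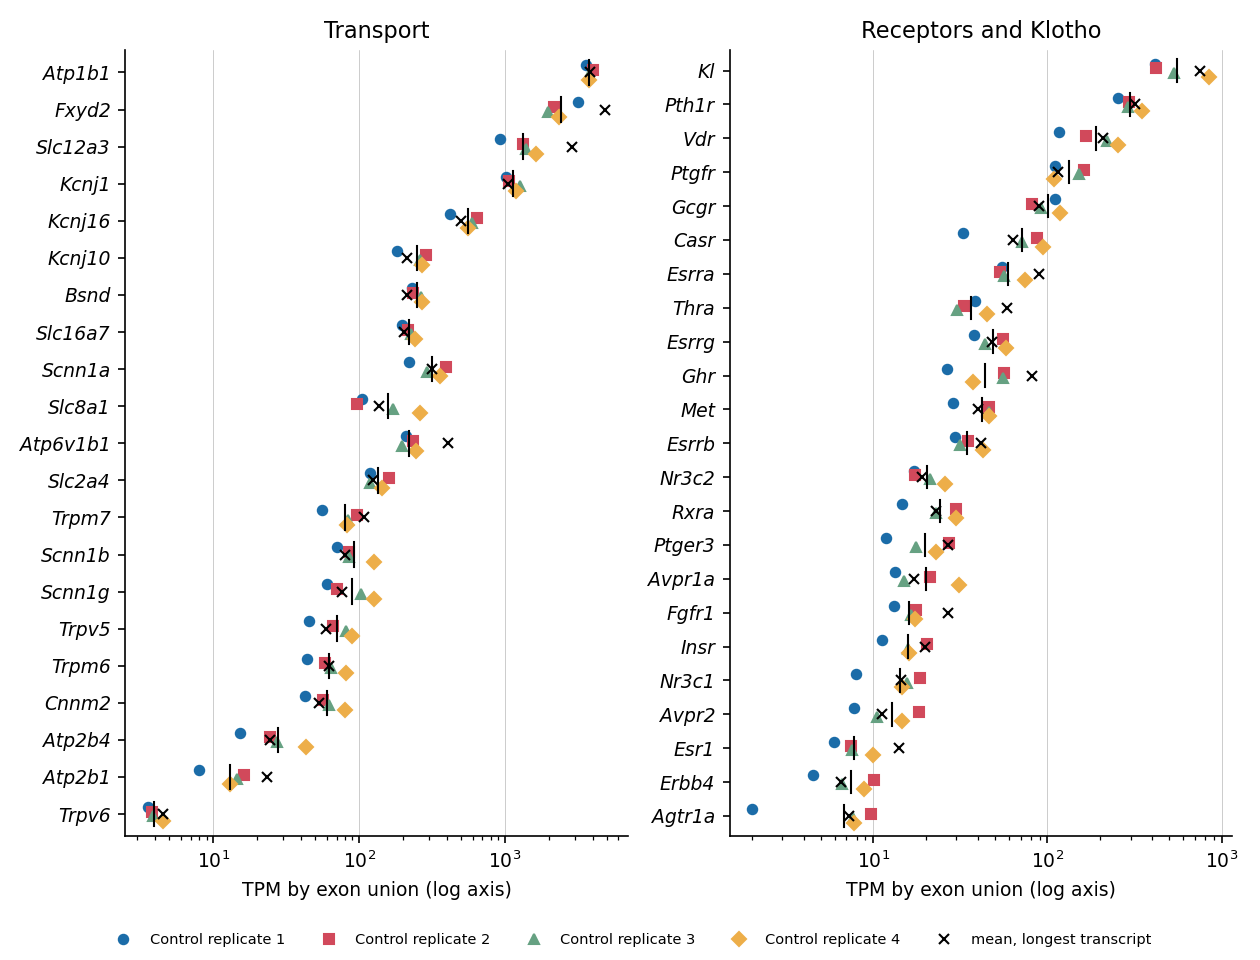
TPM by exon union of transport genes and of hormone and growth factor receptors (horizontal log axis), with each of the 4 Control libraries as a symbol, their mean as a black line and the mean by longest transcript as a cross. Atp1b1 leads the transport genes shown at 3776 TPM and Kl the receptors at 556, and for most genes the libraries lie close together beside the range between genes.

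Acid and base genes were detected in 18 of 20 cases. Atp6v1a and Atp6v1b1, subunits of the proton pump, had 753, 836, 866 and 906 CPM for Atp6v1a and 499, 435, 394 and 477 CPM for Atp6v1b1, and 21 of 23 proton pump genes were detected. Car2, cytosolic carbonic anhydrase, had 199.8, 261, 193 and 268 CPM and Car12, a membrane form, 149, 247, 205 and 256. Car15, another membrane form, had 374, 316, 246 and 401 CPM, but it overlaps a predicted gene with more counts than its own and is uncertain. Slc4a4, the sodium bicarbonate cotransporter of proximal tubule, was lowest in replicate 1, with 65.6, 439, 273 and 231 CPM. Of the aquaporins 6 of 10 listed genes were detected (60.0%, against 52.5%), and Aqp9 had no count. Aqp1, the water channel of proximal tubule, had 73.2, 225, 257 and 119 CPM, Aqp2, the vasopressin-regulated channel of principal cells, 23.8, 69.3, 29.7 and 35.9, and Aqp6, of intercalated cells, 32.8, 38.0, 28.8 and 36.6. Of genes for glucose, amino acids and organic solutes 16 of 17 were detected. Slc2a4, the insulin-regulated glucose transporter GLUT4, had 227, 239, 189 and 224 CPM, and Slc2a1, GLUT1, 96.2, 86.4, 77.3 and 103. By either length both exceeded Slc2a2, GLUT2 of proximal tubule, which had 13.6, 74.6, 47.4 and 37.1 CPM.

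Over whole gene families, taken by symbol after levels had been seen, 259 of 371 solute carriers (69.8%) were detected, 11 of 32 claudins (34.4%), 17 of 94 potassium channel genes (18.1%) and 11 of 28 TRP channels (39.3%), against 52.5% of all nuclear protein-coding genes. Cldn8, a claudin of the aldosterone-sensitive segments that limits paracellular sodium, was the most abundant claudin with 419.7 TPM and 543, 365, 504 and 449 CPM. Cldn2, a pore-forming claudin of proximal tubule, had 56.1, 226, 159 and 129 CPM, lowest in replicate 1, and Cldn7 and Cldn4, of the distal nephron, had means of 61.3 ± 16.4 and 41.5 ± 10.5 CPM (SD, n = 4). Of the TRP channels, Pkd2, the polycystin-2 of cilia, had 253 ± 20.2 CPM and Trpv4, an osmosensitive channel, 60.3 ± 17.0.

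Of 21 receptors for steroids, thyroid hormone, vitamins and related ligands, 17 were detected. Vdr, the vitamin D receptor, led them with 361, 403, 573 and 638 CPM and 189.7 TPM, and it exceeded Nr3c2, the mineralocorticoid receptor, 6.82 to 10.4 times per length. Nr3c2 had 60.7, 48.2, 63.0 and 74.5 CPM and Nr3c1, the glucocorticoid receptor, 33.3, 60.6, 54.8 and 50.2. Their ratio per length was 0.943 to 2.16 by exon union and 0.864 to 1.98 by longest transcript, so that neither was the higher in every library. Esrra, Esrrg and Esrrb, estrogen-related receptors that drive genes of oxidative metabolism, had 131, 99.8, 113 and 144 CPM for Esrra, 129, 147, 125 and 159.6 CPM for Esrrg and 97.4, 90.5, 87.0 and 115 CPM for Esrrb. Rxra, the shared partner of many of these receptors, had 43.7, 69.4, 57.3 and 72.3 CPM. Thra, a thyroid hormone receptor, had 79.4 ± 17.2 CPM, but it overlaps Nr1d1 and its counts are uncertain to that extent. Cyp27b1, the enzyme that activates vitamin D and is known from proximal tubule, had 0.439, 15.5, 3.81 and 0.501 CPM and a mean of 1.58 without replicate 2. Hsd11b1, which regenerates glucocorticoids, had 3.75, 7.41, 10.2 and 21.5 CPM and a mean of 7.14 without replicate 4, and 5.57 TPM against 161 of Hsd11b2.

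Receptors coupled to G proteins for calcium-regulating hormones, vasopressin and other peptides were detected in 10 of 22 cases (45.5%), near the 52.5% of all nuclear protein-coding genes. Pth1r, the parathyroid hormone receptor, had 405, 369, 391 and 453 CPM and 297 TPM, and Casr, the calcium-sensing receptor, 84.2, 176, 156 and 199 CPM. Pth1r exceeded Casr 7.77, 3.39, 4.05 and 3.68 times per length, so that the upper end of this range rests on replicate 1 alone. Gcgr, the glucagon receptor, had 159, 90.9, 111 and 137 CPM, highest in replicate 1. Glp1r, its incretin relative, and Pth2r were below 1 CPM in all 4 libraries. Avpr2, the vasopressin V2 receptor, had 12.1, 22.4, 13.8 and 18.8 CPM, but it overlaps Arhgap4, which has more counts, and is uncertain. Avpr1b, Oxtr, Agtr1b and Bdkrb1, receptors for vasopressin, oxytocin, angiotensin II and bradykinin, had no count in any library. Agtr1a, the other angiotensin receptor of its type in mice, had 3.07, 11.5, 9.77 and 9.57 CPM.

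Of 21 adrenergic, dopamine and purine receptors 7 were detected (33.3%, against 52.5%). P2rx4, an ATP-gated channel, had 54.1, 54.4, 47.2 and 50.3 CPM and Adrb1, the β1-adrenergic receptor through which NCC is stimulated, 19.8, 12.9, 9.20 and 12.1. Adra2b, known from proximal tubule, had 10.9, 76.6, 39.9 and 17.8 CPM and a mean of 22.9 without replicate 2. Adora2b, an adenosine receptor, had 13.6, 4.40, 5.23 and 1.95 CPM and a mean of 3.86 without replicate 1. Drd1, Drd4, Drd5, Adrb3 and Adora3 had no count. Of 8 prostaglandin receptors 3 were detected (37.5%), and Ptgfr, with 133 TPM against 19.9 for Ptger3, was the most abundant. Receptors for growth factors, insulin and cytokines were detected in 17 of 21 cases. Kl led them with 556 TPM, while Fgfr1, the receptor with which Klotho binds FGF23, had 70.5, 74.1, 75.0 and 75.6 CPM and a CV of 3.11%. Klb, the Klotho relative of liver and fat, had a total of 1 count. Of the EGF receptor family, Erbb3 had 61.0, 72.7, 56.0 and 84.1 CPM and Egfr 15.0, 38.4, 30.3 and 24.6. Met, the receptor of hepatocyte growth factor, had 120.1, 152, 163 and 157 CPM, Ghr, the growth hormone receptor, 131, 218, 232 and 151, and Insr, the insulin receptor, 84.0, 119.5, 99.9 and 98.4.

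Transcription factors of the nephron were detected in 24 of 26 cases. The others, Six2 and Osr1, which mark nephron progenitors, were below 1 CPM in all 4 libraries, with 1 count of Six2 and 36 counts of Osr1 in total. Tfcp2l1, of the distal nephron and collecting duct, had 534, 839, 915 and 798 CPM. Tfcp2l1 and Emx1 had the highest levels of the list, 178 and 159 TPM by exon union and 154 and 189 by longest transcript. Lhx1, a factor of kidney development, had 146, 128, 156 and 125 CPM and Pou3f3, of thick limb and distal tubule, 171, 133, 112 and 151. Ppargc1a, a coactivator of mitochondrial biogenesis, had 109, 159, 179 and 181 CPM, lowest in replicate 1. Hnf4a, the factor that defines proximal tubule, had 53.5, 297, 288 and 173 CPM and was likewise lowest in replicate 1.

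Genes of other cell types were read from marker lists, and those of proximal tubule were not mere traces. The median over the 20 proximal genes was 196 TPM, and 217 by longest transcript. For the 18 shared distal convoluted tubule markers it was 236 and 207 TPM. All 20 proximal tubule genes were detected. Of these, 19 were lowest in replicate 1, and 11 were highest in replicate 2 and 9 in replicate 3. Other lists varied in this. Lowest in replicate 1 were 15 of 21 growth factor, insulin and cytokine receptors and 6 of 18 shared distal convoluted tubule markers. None, 0 of 15, of the handling and stress genes were. Whether the length pattern of replicate 1 takes part was not tested. Without Kap the proximal list summed to 3366, 10943, 9917 and 6832 CPM, a 3.25-fold range that was 1.60-fold over replicates 2 to 4. Slc34a1, the phosphate transporter that defines the segment, had 476, 1851, 1628 and 1251 CPM, and per length it stood at 0.2002 to 0.701 of the level of Slc12a3 by exon union and 0.0911 to 0.319 by longest transcript. Acsm2 and Cyp4b1, proximal metabolic enzymes, had 568, 1967, 2037 and 1349.6 CPM for Acsm2 and 510.4, 1433, 1241 and 977 CPM for Cyp4b1, and Lrp2, the endocytic receptor megalin, 166, 635, 535 and 396. Slc5a12, a lactate transporter, had 10.8, 134, 47.2 and 57.8 CPM and a mean of 38.6 without replicate 2. Kap was the exception in being lowest in replicate 4. How far proximal fragments among the sorted material take part in the values of Gpx3, Hnf4a, Slc4a4, Kcnj15, Cldn2 and other genes with this order of libraries was not tested.

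Genes of collecting duct cells were present too. Intercalated cell genes were detected in 10 of 10 cases. Slc26a4, which encodes pendrin of type B cells, had 108, 101, 92.2 and 145 CPM, and Slc4a1, the anion exchanger of type A cells, 42.7, 54.0, 52.4 and 63.7. Slc26a4 exceeded Slc4a1 2.77 to 3.97 times per length. Foxi1, their master regulator, had 49.98, 42.4, 45.4 and 48.4 CPM, a spread with a CV of 7.17%, and Atp6v1g3, a pump subunit, 212, 86.3, 101 and 137. Principal cell genes were detected in 8 of 10 cases, and 3 of the 8 are sodium channel and aldosterone genes that the late distal convoluted tubule shares. Per length Slc12a3 exceeded Aqp2 11.6 to 30.7 times by exon union and 29.8 to 79.2 by longest transcript. Aqp4 had 2.44, 5.68, 1.88 and 0.752 CPM and a mean of 1.69 without replicate 2.

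Podocyte genes reached the detection threshold in 2 of 8 cases, and all 8 were highest in replicate 4. Podxl, which encodes a sialomucin of the podocyte surface, had 5.02, 24.6, 18.8 and 58.2 CPM and a mean of 16.1 without replicate 4. Nphs1, which encodes nephrin of the filtration slit, had 0, 2.94, 2.19 and 11.3 CPM and 1.71 without it. The list, some of whose genes other cells share, summed to 18.6, 57.7, 48.7 and 151 CPM. Endothelial genes were detected in 10 of 10 cases with Ehd3 the highest at 15.2 CPM on average, 3.56, 5.65, 7.11 and 6.27 CPM of Pecam1 and 1.95, 11.3, 9.77 and 10.6 of Kdr, and 8 of the 10 were lowest in replicate 1. Ren1, which encodes renin of juxtaglomerular cells, had 9.41, 2.65, 9.88 and 14.3 CPM. Of genes of fibroblasts, pericytes and smooth muscle 3 of 10 were detected, and Pdgfrb and Col1a2 had means of 1.93 and 1.14 CPM.

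Lists of blood and other lineages had low sums. Myeloid genes were detected in 4 of 12 cases and summed to 22.5, 24.6, 27.7 and 23.9 CPM. Among them Cd74 had 8.48, 10.1, 13.3 and 7.92 CPM, while Cd68, C1qa and C1qb were below 1 CPM in every library. No gene of lymphocytes (of 7), red blood cells (of 6) or urothelium (of 6) was detected. The lymphocyte list summed to 0.146, 0.674, 0.784 and 0.301 CPM, and Ms4a1, Lum, Upk2, S100b, Snap25, Plin1 and Cidec had no count. Of nerve and glia genes 1 of 5 was detected, and the list summed to 2.79 to 4.16 CPM. Of adipocyte genes 1 of 4 was detected, and the list summed to 1.06 to 3.27 CPM. Among the lists of other cell types, which differ in number of genes, the proximal one, Kap included, had the highest summed TPM by longest transcript in every library. With Kap its 20 genes had 13645, 30569, 36477 and 17062 TPM, and the 11 of thick ascending limb 6832, 6277, 7896 and 9759. Kap is among the most abundant of all genes, and the order by TPM without it was not computed. Without a correction for length the order was not the same in every library. Summed CPM was 8630.2, 18989, 21221 and 11379 for the proximal list and 12121, 9085, 11698 and 14092 for thick ascending limb. Without Kap the proximal sum was 3366, 10943, 9917 and 6832 CPM, above the full thick ascending limb list in replicate 2 alone. Without Umod and Kcnj1 the thick ascending limb sum was 924, 1540.1, 860.0 and 1368 CPM.

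**Figure D3:**
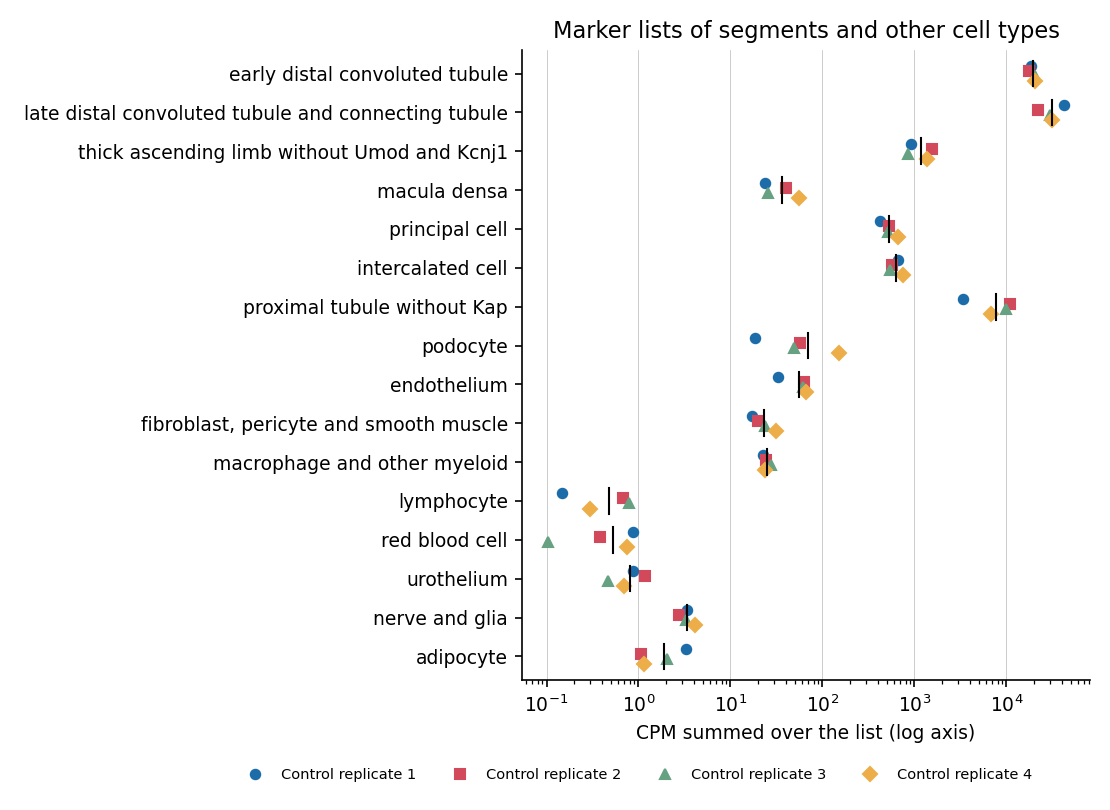
Summed CPM of marker lists of segments and other cell types (horizontal log axis) in the 4 Control libraries (symbols) with their mean (black line). The proximal tubule list is drawn without Kap and that of thick ascending limb without Umod and Kcnj1. The proximal tubule list is lowest in replicate 1, the podocyte list highest in replicate 4, and the lymphocyte, red blood cell and urothelium lists lie at about 1 CPM or less.

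Genes of the handling and stress response set replicate 2 apart. Of 15 such genes 14 were highest there, and without Hsp90aa1 they summed to 691, 2591, 484 and 493 CPM. Nr4a1, an orphan receptor induced within minutes of stimulation, had 13.1, 520.4, 3.76 and 9.22 CPM, with a mean of 8.70 without replicate 2. Egr1, an immediate early factor, had 31.5, 430.5, 22.2 and 34.3 CPM and a mean of 29.3 without it. Btg2, which slows cell growth, had 111, 358, 85.0 and 84.2 CPM and a mean of 93.5 without it. Fos and Jun, partners in the factor AP-1, had 89.7, 189, 60.5 and 61.4 CPM for Fos and 64.3, 145, 43.5 and 49.9 CPM for Jun. The inducible chaperones Hspa1a and Hspa1b had 18.3, 85.4, 17.9 and 12.5 CPM for Hspa1a and 28.4, 105, 34.2 and 20.1 CPM for Hspa1b, with means of 16.2 and 27.6 without replicate 2. Their near-identical sequences make the split between them uncertain. Ier3 and Zfp36, 2 further early genes, had means of 127 and 37.9 CPM without replicate 2 against 413 and 123 in it. Hsp90aa1, the single exception, was highest in replicate 3, with 288, 311, 331 and 244 CPM.

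**Figure D4:**
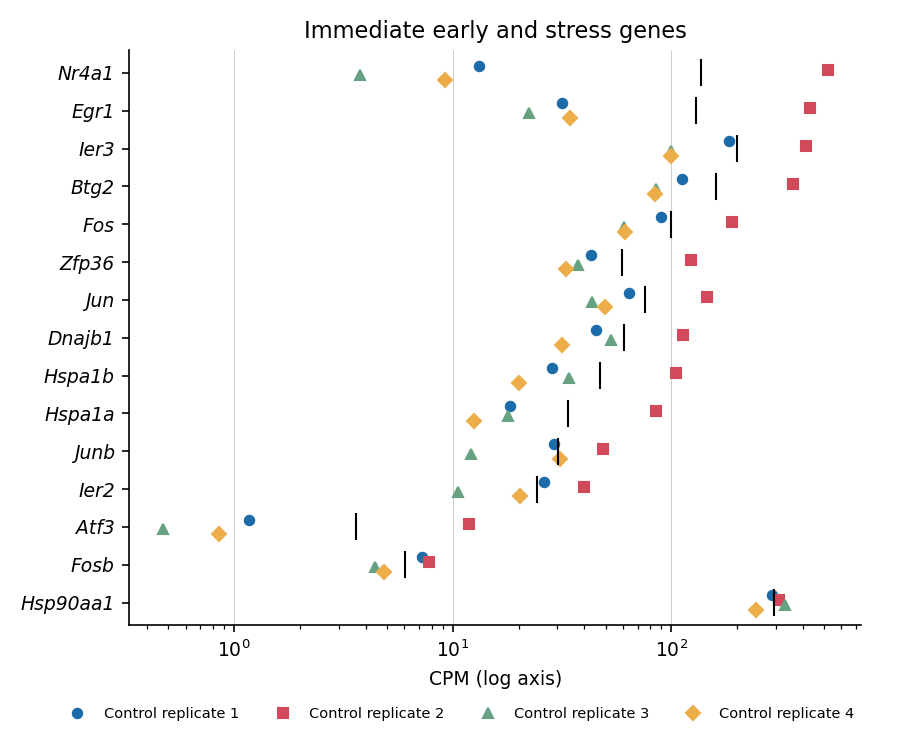
CPM of the handling and stress response genes (horizontal log axis) in the 4 Control libraries (symbols) with their mean (black line). Replicate 2 is the highest for 14 of 15 genes, and Nr4a1 spans from 3.76 to 520.4 CPM.

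Genes read as tubule injury were detected in 6 of 10 cases (60.0%), near the share of all nuclear protein-coding genes (52.5%). Spp1 had 3671, 2532, 2651 and 2618 CPM, highest in replicate 1, and Clu 2551, 2588, 2027 and 1675. Havcr1, the proximal injury molecule KIM-1, had 1.02, 6.11, 3.55 and 0.501 CPM and a mean of 1.69 without replicate 2, and Lcn2, lipocalin 2, had 0.0488, 2.12, 0 and 0.351 CPM. Krt8 and Krt18, keratins of simple epithelia, had means of 71.7 ± 13.8 and 16.2 ± 4.02 CPM (SD, n = 4). Cell division genes were detected in 5 of 10 cases, also near that share, with 1.95, 3.30, 3.81 and 3.81 CPM of Mki67 and 2.29, 2.96, 3.50 and 3.36 of Top2a, both markers of dividing cells, and 39.4, 27.8, 27.6 and 25.2 of Pcna, which also serves DNA repair. Of the sex-linked genes, the Y-linked Ddx3y, Uty, Kdm5d and Eif2s3y were detected in all 4 libraries, with 22.3, 37.9, 36.4 and 36.1 CPM of Ddx3y, and Xist had 5 counts in all.

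The libraries differed from one another to unequal degrees, with replicate 1 the furthest from the others. Over 9165 nuclear protein-coding genes with a mean of at least 10 CPM, the median CV was 15.6%, against 3.32% that counting error alone would give, and 23.6% of genes had a CV under 10% and 2.16% one over 50%. The median CV was 9.52% without replicate 1. Pearson correlations of log2(CPM + 1) over these genes, which share libraries and depth and are a description only, were 0.907 to 0.936 for pairs with replicate 1 and 0.965 to 0.981 for the others. As a check for a library deposited more than once, the counts of each pair were compared, and every pair differed by more than counting error (chi-square per gene 38.7 to 246), so each library was counted as 1 sample. Bsdc1, Smad4 and Usp4 were the least variable, with CVs of 0.804%, 0.881% and 0.927%, and Smad4, the shared mediator of TGF-β signalling, had 47.5, 48.5, 47.7 and 48.0 CPM. Nr4a1 was the most variable with 187%, followed by Angptl7, a secreted angiopoietin-like protein, with 176% and Padi2, which converts arginine to citrulline, with 171%. Angptl7 had 0.731, 45.8, 1.52 and 2.41 CPM and Padi2 1.76, 46.0, 1.72 and 2.16 CPM, and without replicate 2 their means were 1.55 and 1.88. Of the 100 most variable genes 73 were highest in replicate 2, 12 in replicate 1, 6 in replicate 3 and 9 in replicate 4. The share over all genes was not computed. Slc25a25, a mitochondrial carrier, and Ccn1, a matricellular protein, also stood high there, with 26.3, 248, 53.1 and 30.9 CPM for Slc25a25 and 11.3, 113, 25.3 and 16.8 CPM for Ccn1 and means of 36.8 and 17.8 without it. Pck1 and Hao2, proximal enzymes of gluconeogenesis and hydroxyacid oxidation, had 269.7, 1786, 924 and 367 CPM for Pck1 and 51.5, 388, 149 and 64.2 CPM for Hao2 and means of 520.3 and 88.3 without it. Pygm, muscle glycogen phosphorylase, was instead highest in replicate 1, with 22.2, 10.3, 6.58 and 0.952 CPM, and its mean was 5.94 without replicate 1.

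Several gene families were higher together in replicate 1. Of 93 nuclear genes of the respiratory chain and ATP synthase 87 were detected, and 86 of the 87 were highest in replicate 1. Complex I genes summed to 17759, 9141, 9905 and 9832 CPM, a level in replicate 1 that was 1.84 times the mean of the others. Complex IV and V genes stood at 2.01 and 1.59 times. Genes of cytosolic ribosomal proteins, many of which have close copies that make single values uncertain, summed to 24078, 13422, 14029 and 13481 CPM, and 83 of the 92 detected were highest in replicate 1. The proton pump stood at 1.21 times, and TRP channels at 0.781 times. Across the 9165 genes the Spearman correlation of the longest transcript's length with the log2 ratio of a library to the mean of the others was -0.57 in replicate 1 and 0.35 to 0.40 in the other 3, each of which is compared with a mean that includes replicate 1. This is across genes, which are not independent replicates. Fxyd2, Cox6b1, Defb1, Pvalb and S100g were highest in replicate 1, and their longest transcripts are 1694, 618, 872, 977 and 480 bases. Pvalb had 987 CPM there against 179 to 485 in the others. Whether the length pattern takes part in these single levels was not tested.

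**Figure D5:**
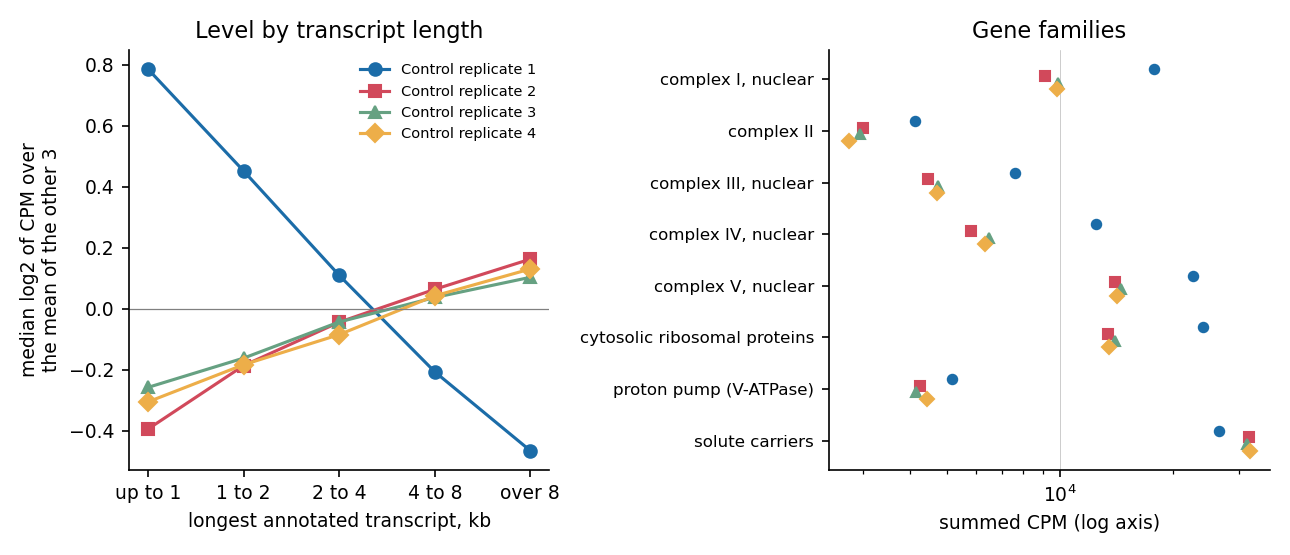
On the left, the median log2 ratio of each Control library to the mean of the other 3 by length of the longest transcript in kb, and on the right the summed CPM (log axis) of gene families in each library. The line of replicate 1 runs from 0.79 at up to 1 kb to -0.47 over 8 kb, and replicate 1 is the highest for the respiratory chain and ribosomal families.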

How the data were processed

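Total RNA of the 4 Control libraries was sequenced by the authors, and the deposited values are whole-number read counts per Ensembl gene identifier. Reads were handled with bcl2fastq 2.20, fastp 0.20.0 and STAR 2.7.4a on GRCm38.p6, per the submitters' processing notes. For the program that counted reads, its annotation, its strand option and its treatment of reads matching several places, the entry is: not given in the sources used here. Overlapping and antisense genes therefore cannot be told apart, and values of close copies are uncertain.

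Identifiers were matched to GENCODE mouse release M21 (42347 of 42416). Counts were scaled to CPM with TMM factors of edgeR 4.0.16 in R 4.3.3, over all 8 libraries of the series and the 14268 genes left by its filter on low counts. TPM divides counts by the exon union of a gene or, as an alternative, by its longest transcript. Tables were made in Python 3.11.15 with pandas 2.3.3 and SciPy 1.17.1, and the scaling and the CV were tested on simulated data. Alternatives were raw library totals, TMM over the Control libraries alone, median-of-ratios factors as in DESeq2 1.42.0, upper-quartile scaling, other thresholds and leaving out each library. No test between groups was made, and no hypothesis was tested. One count was worth 0.0241 to 0.0523 CPM, intervals and limits cover counting error only, and spread between the libraries may be technical in part.

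The genes and lists were chosen with earlier results of these data known. Named genes are the 40 most abundant nuclear protein-coding genes by TPM, mitochondrial genes, every segment marker, in each other list the 8 highest by TPM, members without a count and members that define the list, and the 20 most and 10 least variable genes with a mean of at least 10 CPM. Outside that rule, gene families and Cftr, Cldn14, Cldn2, Cldn4, Cldn7, Cldn8, Cnnm1, Cnnm3, Cnnm4, Egfr, Glp1r, Kcna1, Kcnma1, Klb, Lrp2, Nedd4l, Nr3c1, Osr1, Pkd2, Pou3f3, Pth2r, Sgk1, Six2, Slc2a2, Slc41a3, Slc4a4, Trpv4, Trpv6, Wnk2, Wnk3 and Zfp36 were named after their values had been seen. Predicted gene models were counted but not named, and some genes of the lists are not reported here.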

Additional observations from a re-analysis of the deposited data

Results flagged for a closer look

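In each of the following values 1 of the 4 libraries lay apart from the other 3 by more than Dixon's criterion allows at the 95% level. Chance gives such a value in about 1 of 20 groups, and 30 of 249 values examined met it. The 2 shares cannot be set against each other, since the values examined include genes named for their wide spread or after their values had been seen, and sums that hold some of the same genes.

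Replicate 1 was high in Atp5a1 (4272 CPM against 3167 to 3184), Atp5b (5938 CPM against 4486 to 4553), Cox6b1 (1382 CPM against 719 to 739.8) and Fxyd2 (6958 CPM against 3653 to 4192). It was also high in S100a1 (1174 CPM against 548 to 582), Slc25a5 (2342 CPM against 1507 to 1569) and Spp1 (3671 CPM against 2532 to 2651). Replicate 1 was low in Ddx3y (22.3 CPM against 36.1 to 37.9), Kcnj10 (533 CPM against 650.1 to 667), Kdr (1.95 CPM against 9.77 to 11.3) and Slc12a7 (77.2 CPM against 131 to 141). It was also low in Trpv4 (34.8 CPM against 68.1 to 69.7). Replicate 2 was high in Angptl7 (45.8 CPM against 0.731 to 2.41), Btg2 (358 CPM against 84.2 to 111), Ccn1 (113 CPM against 11.3 to 25.3) and Egr1 (430.5 CPM against 22.2 to 34.3). It was also high in Hspa1a (85.4 CPM against 12.5 to 18.3), Hspa1b (105 CPM against 20.1 to 34.2), Nr4a1 (520.4 CPM against 3.76 to 13.1) and Padi2 (46.0 CPM against 1.72 to 2.16). Further values high there were those of Slc25a25 (248 CPM against 26.3 to 53.1) and Zfp36 (123 CPM against 33.1 to 43.1). Replicate 3 was low in Cldn16 (17.2 CPM against 28.3 to 30.0). Replicate 4 was high in Scnn1b (149 CPM against 96.5 to 103).

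The total was highest in replicate 2, with 42389558 counts against 19911826 to 23190905 in the others. The list of endothelial genes summed to 32.9 CPM in replicate 1 against 60.8 to 66.4 in the others. The list of magnesium genes summed to 1765 CPM in replicate 4 against 1531 to 1543 in the others. The list of calciotropic, vasopressin and peptide G protein receptor genes summed to 946 CPM in replicate 4 against 785 to 806 in the others. The list of nephron transcription factor genes summed to 2116 CPM in replicate 1 against 2565 to 2637 in the others. The list of handling and stress response genes summed to 2902 CPM in replicate 2 against 737 to 979 in the others.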

How the results depend on the processing

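The number of genes detected was 12231 and lay between 10052 (at least 5 CPM) and 13635 (at least 1 CPM in any library) over the other thresholds and scalings, and between 12277 and 12523 when 1 library was left out. Other scalings were library totals, TMM over the Control libraries alone, median-of-ratios factors, upper-quartile scaling and TMM without a filter. Of 244 named genes, 206 had a mean of at least 1 CPM, and these scalings moved none of the 206 by more than 1.08-fold. Removing mitochondrial genes took the share of the 100 most abundant genes from 38.1% to 25.0%, and removing them before scaling took the median level of the list genes from 16.0 to 19.4 CPM, since the remaining total is smaller. Leaving out 1 library gave mitochondrial shares of 18.1% to 18.8%, shares of the 100 most abundant genes of 37.7% to 38.8%, median levels of list genes of 14.8 to 17.5 CPM and a median CV of 9.52% (without replicate 1) to 17.1%. By longest transcript the median TPM of list genes was 7.78 against 7.47, and by longest protein-coding transcript, chosen after seeing the data, 7.87. Depth limits genes without a count to 0.0297 CPM over the group. No paired analysis was possible because a single group was described and the labels give no replicate numbers.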

Other observations

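Among the 40 most abundant genes, several with roles outside transport were not described above. Ly6a, a membrane-anchored antigen of the LY6 family, had 1977, 1349, 1340.4 and 1102 CPM and Igfbp7, a secreted protein that binds insulin-like growth factors, 1818, 1034, 1150.2 and 1170.2. S100a1, a calcium-binding protein best known from muscle, had 1174, 548, 571 and 582 CPM. Fth1, the heavy chain of the iron store ferritin, had 4157, 2269, 2345 and 2775 CPM, and Itm2b, a membrane protein that is processed by proteases, 3110.1, 2324, 2148 and 2084. All 5 were highest in replicate 1. Gabarapl1, an autophagy protein, had 2299.5, 1853, 1864 and 1999 CPM, with a CV of 10.4%.

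The 10 least variable genes with a mean of at least 10 CPM included Hoxa10, a homeobox gene of the urogenital tract, with 25.8, 25.9, 25.2 and 25.6 CPM, and Grk2, a kinase that shuts off receptors coupled to G proteins, with 50.8, 50.3, 49.7 and 49.9. Their CVs were 1.26% and 0.933%.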
